A study of Drosophila melanogaster with 6 samples.

Results

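In Drosophila ovaries of both genotypes of the study, 187 of 32162 microarray probes (0.581%) stood apart from a wild-type reference on every array. Of these, 102 probes (0.317%) were higher than the reference and 85 (0.264%) were lower. A probe was a member if its log2 ratio of ovary RNA over reference RNA was at least 1 on all 6 arrays, or at most -1 on all 6, and if the means of the 2 genotypes were less than 1 apart. On this scale 1 is a doubling. The members were therefore chosen on these ratios, and the ratios are given below as a description, without a test against the reference. The probes carry 177 of the 25857 array identifiers, 99 on the higher side and 79 on the lower side, with 1 identifier on both.

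Whole ovaries of 2 genotypes were profiled on 6 arrays on 3 slides, 3 arrays for each. The control females were GAL80TS/+ ; GR1-GAL4/TM6B, and the females for ectopic expression were GAL80TS/+ ; GR1-GAL4/UAS-Unpaired, UAS-lambdatorpedo. UAS-Unpaired encodes the JAK/STAT ligand Upd and UAS-lambdatorpedo a constitutively active EGFR. GR1-GAL4 is active in the follicle cells, the somatic epithelium around the germline, and GAL80TS blocks GAL4 at 18° and releases it at 29°. Each RNA preparation was a pool of ovaries from several females aged 5 to 8 days that had been fed yeast for 2 days. All 6 ovary samples share GAL80TS, 1 copy of GR1-GAL4, crosses kept at 18° and a final 16 h at 29°, and all were labeled with Cy5. The reference was 1 pool of ovary RNA from OreR, a wild-type strain, whose females were kept at 25° for 2 days, and it was always labeled with Cy3. Strain, transgenes, temperature and dye thus differ together between the 2 channels on every array and cannot be told apart as sources of a ratio that both genotypes share. Between the genotypes, control females carry TM6B in place of the chromosome with the UAS transgenes. These 2 chromosomes cannot be told apart as sources of a difference between the genotypes. In whole ovaries, a lower ratio from fewer cells of a type cannot be told apart from less RNA per cell.

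As background, a common reference lets arrays be compared with each other, because each sample is read against the same RNA and the reference cancels when samples are subtracted. A transcript that differs between the reference strain and the stocks in use stays visible in the ratio to the reference and drops out of the contrast between genotypes. Laboratory strains of Drosophila carry different alleles of many genes, among them deletions, duplications and transposon insertions that alter transcript levels. Shifting adults to a higher temperature also changes the transcript level of many genes, the heat shock genes being the best known. Each probe of this array is an oligonucleotide that reads 1 short stretch of a transcript, so that probes of 1 transcript need not respond alike when isoforms or alleles differ.

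Between 23606 and 33915 of 43602 spots were well above background in Cy5, the highest number on control replicate 3, and between 23385 and 25494 in Cy3. No spot was saturated, and none of the 255 spots of member probes was flagged as an outlier on any array. The number of arrays limits the precision. Only 502 probes could be matched to exactly 1 gene, since the array files name most probes by a FlyBase transcript or cDNA assembly number that the gene table used here does not hold. Of 280 genes in 23 lists that cover ovarian cell types, heat shock, immunity, detoxification, yolk and eggshell, germline and signaling genes, 6 had a named probe, and 0 member probes belonged to a listed gene. The tissue could therefore not be checked against its markers, and no pathway is described here.

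The higher side had a median log2 ratio of 1.82 over the 6 arrays, and the means of its probes ran from 1.095 to 5.28. A mean of at least 2 was found for 44 probes, of at least 3 for 15, of at least 4 for 6 and of at least 5 for 3, while 28 stayed under 1.5. The lower side was shallower, with a median of -1.55 and means from -1.08 down to -6.58. There, 22 probes had a mean of -2 or less, 8 of -3 or less, 3 of -4 or less and 1 below -5, and 39 were nearer to 0 than -1.5. The spread of the arrays around these means is limited in part by the rule and was not compared with other probes. The SD over the 6 arrays had a median of 0.23 on the higher side, between 0.027 and 0.728, and of 0.196 on the lower side, between 0.073 and 0.645.

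**Figure D1:**
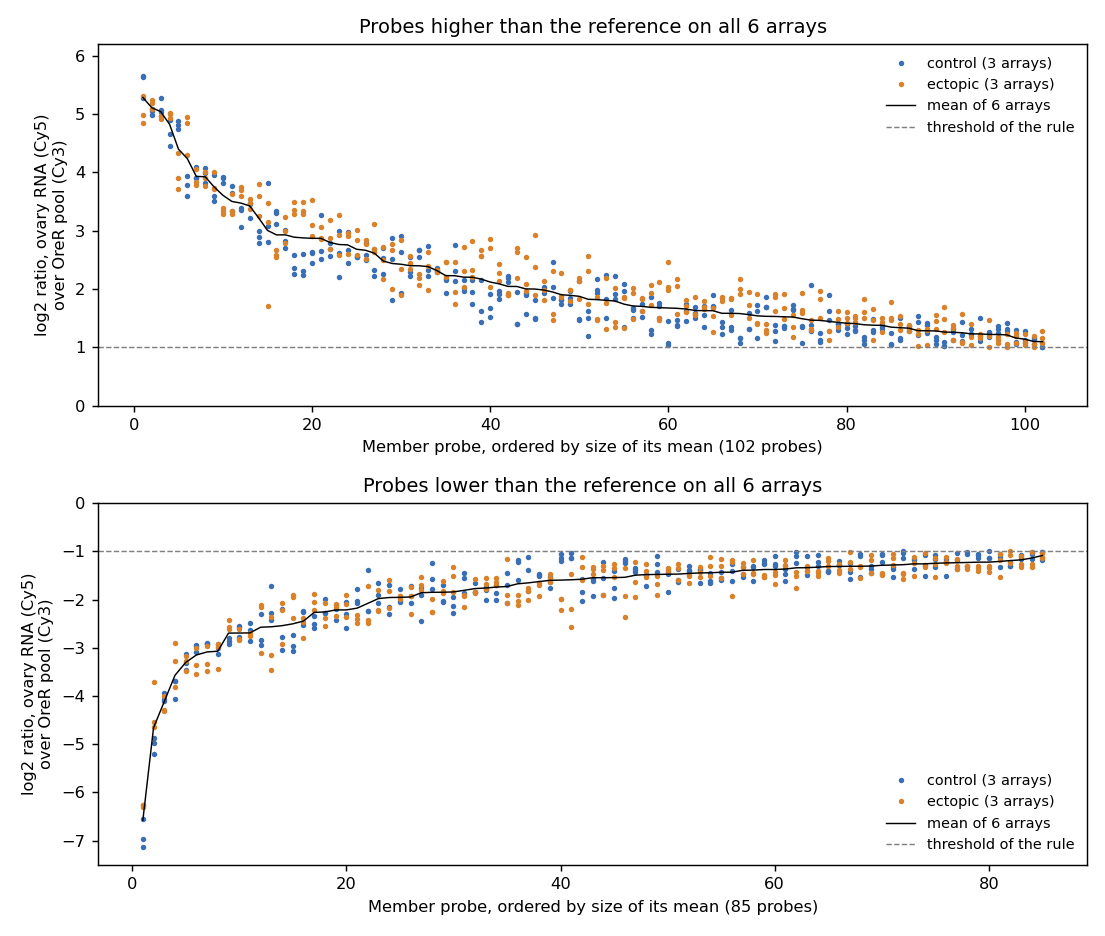
Log2 ratio of ovary RNA (Cy5) over the OreR pool (Cy3) on each array for every member probe, ordered by the size of its mean; each dot is 1 array, blue for control and orange for ectopic expression, the line is the mean of 6 arrays and the dashed line the threshold of 1 or -1. The higher side reaches a mean of 5.28 and the lower side -6.58, and most probes of both sides lie within 2 units of the threshold.

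The steadiest and the least steady member, chosen after their values were seen, show what this spread means for single probes. The probe of FBtr0083006 read 2.29, 2.33 and 2.36 on the control arrays and 2.32, 2.32 and 2.29 on the ectopic expression arrays, a range of 0.075. Its Cy5 intensity lay between 95236.2 and 121343.8 and its Cy3 intensity between 7359 and 9959, far above background in both channels. The probe of FBtr0289956 read 3.08, 3.82 and 2.80 on the control arrays and 3.15, 1.70 and 3.47 on the ectopic expression arrays, a range of 2.12. Its Cy3 intensity was between 13.5 and 25 and passed the scanner's test of being well above background on 1 of 6 arrays. Its Cy5 intensity was 242 on ectopic expression replicate 2, the array that read 1.70, and between 1053 and 1642 on the others. On that array the Cy3 intensity was 18, within the range of the others.

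Detection set how well a ratio is known. A probe counted as above background on an array if at least 1 of its spots was, while its ratio averages all its spots. On the higher side, the ovary channel (Cy5) was well above background on all 6 arrays for 102 of 102 probes, against 48.1% of all probes. The reference channel (Cy3) was above background on all 6 arrays for 78 of them (76.5%), on 1 to 5 arrays for 16 and on none for 8. For those 8 probes the ratio is only a bound. They were at least 2.38-fold to 15.5-fold higher than the reference in control ovaries and at least 2.37-fold to 14.4-fold higher in ectopic expression ovaries, with the highest bounds for FBtr0078958. On the lower side, the reference was above background on all 6 arrays for 85 of 85 probes, and the ovary channel for 74 (87.1%), on 1 to 5 arrays for 10 and on none for 1, FBtr0070349. Its bounds were at least 2.20-fold lower in control and 2.24-fold lower in ectopic expression ovaries. That the brighter channel was detected for every member of a side follows in part from the rule, which asks for at least a doubling. The bounds take the lowest signal well above background on each array as the dim channel, from single channels after normalization, and are set to the fold of the deposited ratios where that was smaller. Since dyes were not swapped, they are open to dye bias.

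Gene names were available for 3 members of the higher side and 2 of the lower side. The rule limits the difference between the genotypes for every member. Limma values of single members, here and below, therefore describe differences that the selection bounded. CR14033 is annotated as a pseudogene and overlaps tkv, which encodes a type I receptor of the BMP ligand Dpp. Its probe (LD26673) read 2.51, 2.66 and 3.26 on the control arrays and 2.85, 2.87 and 3.07 on the ectopic expression arrays. The mean was 2.87 ± 0.27 (SD, n = 6), a 7.29-fold higher signal than in the reference, and the values of the genotypes overlapped. The reference intensity of this probe was between 121 and 233.5 and the ovary intensity between 2134.5 and 4088.

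CG14715, listed with the synonym FKBP13 and so named for the FK506-binding proteins, a family of peptidyl-prolyl isomerases, was the named member whose genotypes lay farthest apart. Its probe (RH50927) read 2.36, 2.25 and 2.58 on the control arrays and 3.36, 3.49 and 3.28 on the ectopic expression arrays. All 6 arrays were more than 2 above the reference, and the 3 ectopic expression arrays were all above the 3 control arrays. The group means were 2.40 ± 0.17 and 3.38 ± 0.11 (SD, n = 3 each), 0.98 apart and so just inside the limit of 1. The limma estimate of ectopic expression minus control was 0.995 (SE 0.10, adjusted p = 0.000591). With median centring in place of loess it was 0.756 and missed the threshold (limma adjusted p = 0.109). The estimate went past 1 with the normexp offset at 0 (1.009) and with the scanner software's ratio (1.031). It also did so without control replicate 3 (1.085), ectopic replicate 1 (1.002) or ectopic replicate 3 (1.045), and stayed under 1 in the other settings.

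CG8204, a protein-coding gene that overlaps CG30466 in the annotation, had a probe (AT23078) at 1.75, 1.94 and 2.15 on the control arrays and at 2.33, 2.83 and 2.20 on the ectopic expression arrays. Its mean was 2.20 ± 0.37 (SD, n = 6), a 4.595-fold higher signal. The 3 ectopic expression values were above the 3 control values, with a limma difference of 0.51 (SE 0.17, adjusted p = 0.0925) that did not pass the threshold of 0.05, although it did without ectopic replicate 3 (0.64, limma adjusted p = 0.0317).

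The 2 named members of the lower side are antisense RNAs, noncoding transcripts made from the strand opposite to another gene. asRNA:CR43767 (NR_073686), which overlaps Tango14, read -3.93, -4.10 and -4.07 on the control arrays and -4.31, -4 and -4.28 on the ectopic expression arrays. The mean was -4.12 ± 0.15 (SD, n = 6) in the deposited ratios, -5.30 with the normexp offset at 0 and -6.95 with the scanner software's ratio. Its reference intensity was between 673 and 826.5, while the ovary intensity was between 21 and 51. The ovary channel was detected above background on 2 of the control arrays and on 0 of the 3 ectopic expression arrays. In ectopic expression ovaries the signal was therefore at least 14.9-fold lower than in the reference.

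asRNA:CR42871 (NR_037749), which overlaps CG6650 and CG6661, lay at the edge of the rule. It read -1.30, -1.31 and -1.22 on the control arrays and -1.08, -1.23 and -1 on the ectopic expression arrays, with a mean of -1.19 ± 0.12 (SD, n = 6), or -2.28 with the scanner software's ratio and -0.94 with median centring. Neither antisense RNA was called between the genotypes at an adjusted p under 0.05 in limma (0.564 and 0.299). Since the rule favors small differences, no lack of an effect is read from this. The overlapping genes come from the Release 6 annotation, and whether a probe reads the named transcript or a neighbor was not tested.

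**Figure D2:**
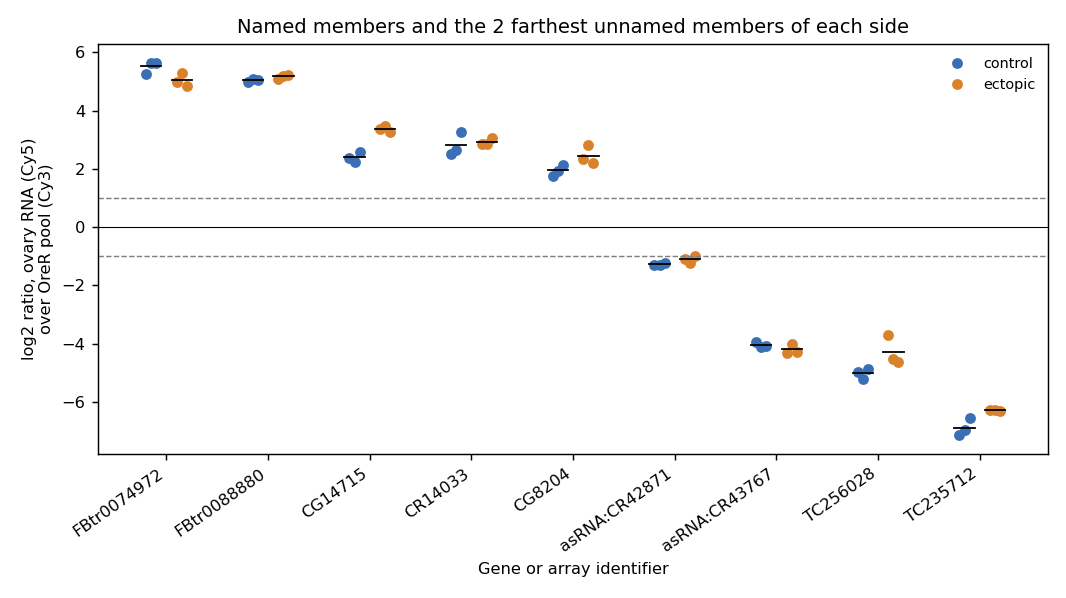
Log2 ratio to the OreR pool on each array for the 5 members with a gene name and for the 2 members farthest from the reference on each side among those without one; dots are arrays (3 control, 3 ectopic expression), short bars group means and dashed lines the thresholds. FBtr0074972 and FBtr0088880 lie near 5 in both genotypes, TC235712 lies below -6 in both, and CG14715 is the named gene with the widest gap between genotypes, 0.98.

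The members farthest from the reference had no gene name. FBtr0074972 read 5.28, 5.64 and 5.65 on the control arrays and 4.99, 5.30 and 4.85 on the ectopic expression arrays. The ovary intensity of this probe was between 3651.8 and 7543, and its reference intensity was between 12.5 and 29 and well above background on 2 of 6 arrays, so the transcript was close to the limit of detection in the reference pool. Its mean of 5.28 (38.9-fold) depended on the processing, and the ratio of the scanner software gave 8.17. The source of this gap was not tested.

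FBtr0088880 was the more even of the highest pair. It read 4.99, 5.09 and 5.05 on the control arrays and 5.09, 5.20 and 5.24 on the ectopic expression arrays, with a mean of 5.11 ± 0.09 (SD, n = 6), 34.5-fold higher. Its reference intensity of 22.2 to 47 was well above background on all 6 arrays, against 4237.8 to 6548 in ovary RNA. Its mean depended on the processing too, being 6.38 with the normexp offset at 0 and 7.24 with the scanner software's ratio.

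TC235712, an assembled cDNA cluster, was the member farthest below the reference. Its values were -7.13, -6.96 and -6.55 on the control arrays and -6.27, -6.26 and -6.30 on the ectopic expression arrays. The mean was -6.58 ± 0.38 (SD, n = 6), a 95.6-fold lower signal, and both channels were well above background on all 6 arrays. With median centring the mean was -5.98. The probe was bright in the reference, with intensities of 61403.1 to 83440.1, and read 1224 to 2123.5 in ovary RNA. The values of the genotypes did not overlap, and limma put ectopic expression 0.62 above control (SE 0.14, adjusted p = 0.0244). The call was lost without control replicate 1 or 2 or ectopic replicate 1 or 2 (limma adjusted p between 0.0634 and 0.0971). It was also lost with loess alone, median centring, the scanner software's ratio or the normexp offset at 0, where the difference was between 0.183 and 0.639.

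TC256028 read -4.98, -5.20 and -4.88 on the control arrays and -3.70, -4.54 and -4.64 on the ectopic expression arrays. The mean was -4.66 ± 0.53 (SD, n = 6), or -5.89 with the scanner software's ratio, with a reference intensity of 1604.5 to 2297.5 and an ovary intensity of 51.5 to 268.5. The ectopic expression arrays were all nearer to the reference than the control arrays, and the limma difference of 0.71 (SE 0.21) had an adjusted p of 0.0676. It passed the threshold narrowly with the slide as a replicate block (limma adjusted p = 0.0495), with loess alone (0.0357) and without ectopic replicate 3 (0.0189).

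Between the genotypes, members of the higher side were a median of 0.11 higher in ectopic expression than in control ovaries, between -0.827 and 0.983, and 81 of 102 differed by less than 0.5. Members of the lower side differed by a median of -0.022, between -0.977 and 0.85, and 75 of 85 by less than 0.5. Within the 3 slides, each with 1 control and 1 ectopic expression array, the median difference was 0.16, 0.24 and 0.005 on the higher side and -0.055, 0.06 and -0.035 on the lower side. In limma at an adjusted p under 0.05, 22 members of the higher side were called higher in ectopic expression ovaries and 7 lower, and 73 were not called. On the lower side 5 were called higher, 10 lower and 70 not. Without ectopic replicate 1, the calls in either direction fell from 29 to 10 on the higher side and from 15 to 3 on the lower side, and over all probes from 3864 to 1807 (5.62%). Of all probes, 6.47% were called higher and 5.55% lower. With dim probes left out, 30 higher-side and 16 lower-side members were called in either direction, beside 24.8% of the probes kept. The 3 ectopic expression arrays were all above the 3 control arrays for 32 members of the higher side and 11 of the lower side, against 13.6% of all probes, and all below them for 13 and 19, against 13.1%. Since the rule limits this difference and the members were detected above background more often than other probes, nothing is read from these counts.

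**Figure D3:**
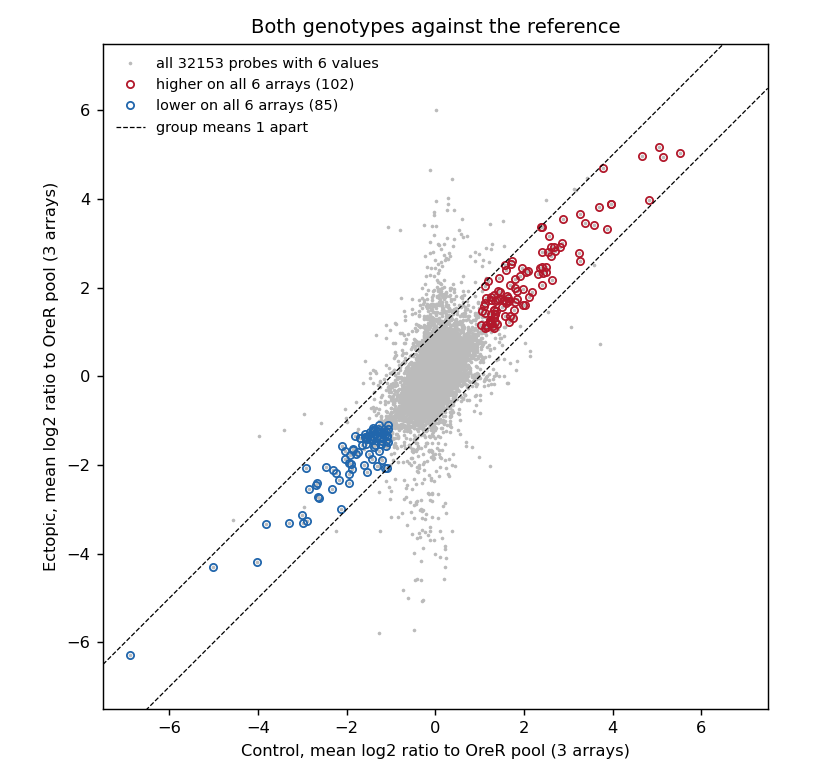
Mean log2 ratio to the OreR pool over the 3 control arrays (horizontal axis) and the 3 ectopic expression arrays (vertical axis) for 32153 probes with a value on every array (grey), with the 102 higher members in red and the 85 lower members in blue; dashed lines mark group means 1 apart. The members lie along the diagonal at both ends, by the rule that chose them. The grey points along the vertical axis have an ectopic expression mean far from 0 and a control mean near 0.

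The arrays did not contribute evenly to the far end of the ratios. On the higher side, ectopic expression replicate 2 was the array farthest from the reference for 46 probes and control replicate 3 for 25, and control replicate 1 for 1. The median ratio of the higher side was 1.67, 1.68 and 1.93 on the control arrays and 1.93, 1.98 and 1.91 on the ectopic expression arrays. On the lower side the arrays were more even, each being the farthest for 10 to 18 probes, with medians between -1.63 and -1.47. Control replicate 3, with a median near those of the ectopic expression arrays on the higher side, was also the array with the most Cy5 spots above background. Its part in the result was not tested beyond leaving it out, which gave 104 higher and 89 lower members. With an array left out, a member can be lost only through the limit between genotypes. These counts therefore cannot show how far control replicate 3 shaped the list.

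The number of members rested on both genotypes passing the threshold. Control ovaries had 164 probes at 1 or more on all 3 arrays and ectopic expression ovaries 405, and 115 probes were shared, which is 70.1% of the former and 28.4% of the latter. At -1 or less, there were 147 and 336 probes, and 90 were shared (61.2% and 26.8%). The limit on the difference between genotypes then removed 13 probes from the higher side and 5 from the lower side. At the edges of the rule, FBtr0082886, FBtr0088469 and TC230594 reached the threshold with a lowest value of 1, and TC251569 missed it with 0.98. On the lower side AF171802, FBtr0079029 and asRNA:CR42871 had a value of -1 on the array nearest to the reference, and FBtr0290240, TC238156 and probe A_09_P028176 of FBtr0072625, an identifier with a member in another probe, missed it with -0.99. For the limit between genotypes, FBtr0082423 passed with a difference of 0.983 and D17529 failed with 1.02, and on the lower side RE04396 passed with -0.977 and FBtr0082437 failed with -1.25.

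Agreement was described between spots of a probe and between probes of a transcript. The rule used the average of the spots, so a pass at every spot follows in part from the selection. Spots of a member lay close together, which was not compared with other probes. Of 42 higher members printed at more than 1 place on the array, 37 passed the threshold at every spot of every array, and the range between spots of 1 array had a median of 0.08. Of 26 such lower members, 23 did, with a median range of 0.06.

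The second measure was the agreement of different probes of 1 identifier. On the higher side, 68 of 99 identifiers had a single probe on the array. Of the 31 with more, 3 had more than 1 probe on the higher side. In these 31 identifiers, 46 probes shared their identifier with another probe that was a higher member. Of the 46, 19 were above the reference on all 6 arrays (41.3%, against 11.5% of all probes), 9 were below it on all 6, and the others were mixed. A mean of 1 or more was found for 6 of the 46, against 0.914% of all probes, and these 6 were themselves members. Over the 46 probes the median ratio was 0.18. The 6 members are also among the 19, and the rule chose them for their ratio. Of the 40 probes that were not higher members, 13 (32.5%) were above the reference on all 6 arrays, with a median ratio of 0.056. A mean of 1 or more was found for 0 of these 40, and a mean of -1 or less for 2. The share of all probes includes probes that were not detected above background.

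On the lower side, 58 of 79 identifiers had a single probe, and of the 21 with more, 6 had more than 1 probe on the lower side. Of 33 probes that shared their identifier with another lower member, 23 were below the reference on all 6 arrays (69.7%, against 12.4% of all probes) and 5 were above it. A mean of -1 or less was found for 15 of the 33, against 0.93% of all probes, and 12 of these were members. Over the 33 probes the median ratio was -0.83. The 12 members are also among the 23, and the rule chose them for their ratio. Of the 21 probes that were not lower members, 11 (52.4%) were below the reference on all 6 arrays, with a median ratio of -0.272. A mean of -1 or less was found for 3 of these 21 (14.3%), and a mean of 1 or more for 1. Probes of 1 identifier share their arrays and often their transcript, so these counts describe the identifiers and are no test.

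**Figure D4:**
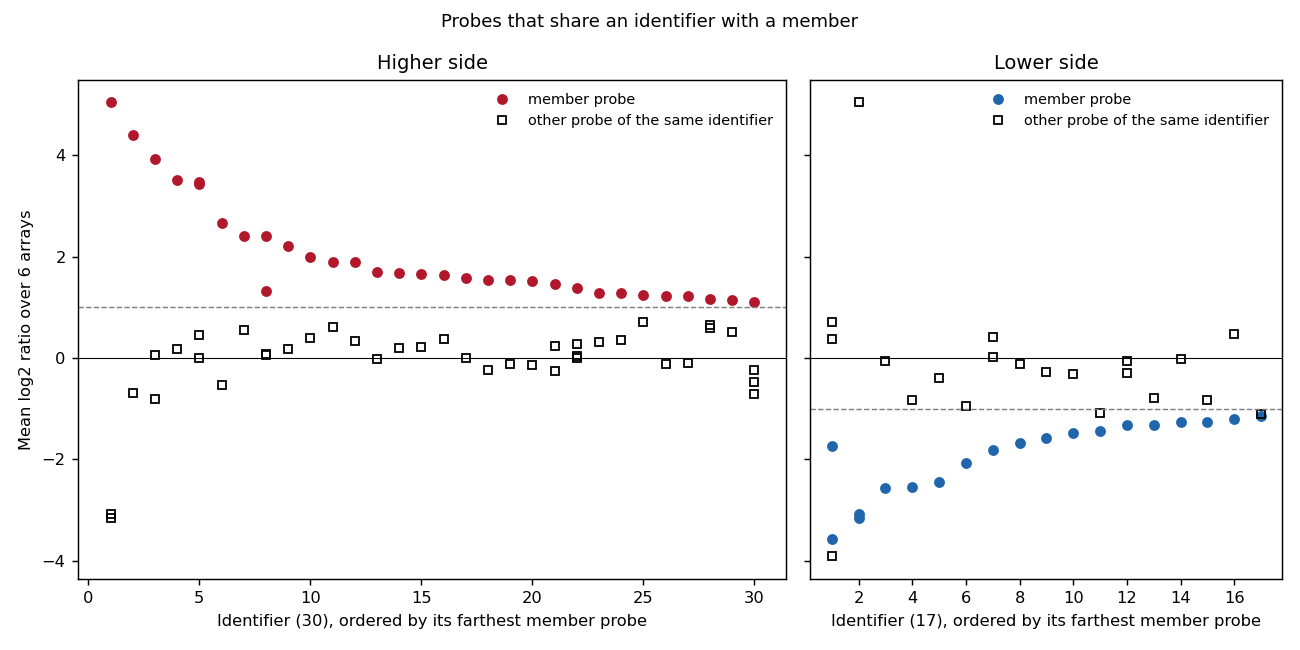
Mean log2 ratio over 6 arrays of member probes (filled) and of the other probes with the same identifier (open squares), for the 30 identifiers of the higher side and the 17 of the lower side that have such probes; the dashed line is the threshold of 1 or -1. Open squares are probes that did not meet the rule on that side, most of them nearer to 0 than the member, and FBtr0070583 has probes at both ends.

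The 9 identifiers with more than 1 member probe were picked out after their values were seen. FBtr0070583 was a member on both sides. Its probe A_09_P030671 read 5.08, 5.04 and 5.28 on the control arrays and 4.97, 4.97 and 4.91 on the ectopic expression arrays, a mean of 5.04, or 6.89 with the scanner software's ratio. In Cy5 it measured 3304.8 to 7427, and in Cy3 23 to 54.2. Its other 2 probes had means of -3.15 and -3.09, and every value lay between -3.55 and -2.89. The lower of them, A_09_P052086, measured 866 to 2865.5 in Cy5 and 7127.5 to 8371 in Cy3. All 3 probes were well above background in both channels on all 6 arrays, so that within 1 identifier 1 stretch was brighter in ovary RNA of the study's stocks and the others were brighter in the OreR pool.

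FBtr0299624 had 4 probes that split in pairs. Members A_09_P193030 and A_09_P176520 had means of 3.47 and 3.42, and the other probes had means of 0.007 and 0.457. FBtr0074527 likewise had 2 members, with means of 2.40 and 1.33, and 2 probes near the reference, with means of 0.06 and 0.07. For FBtr0300761 both probes of the array were members, with means of 3.22 and 2.87, and both were higher in ectopic expression ovaries on all 3 arrays than in any control array.

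On the lower side, FBtr0089123 had 5 probes. Members A_09_P160270 and A_09_P114925 had means of -3.57 and -1.73. Another probe, with a mean of -3.91, passed the ratio threshold on all 6 arrays but was left out because the genotypes differed by 1.32, with control at -4.57 and ectopic expression at -3.25. The remaining 2 probes had means of 0.37 and 0.70. For FBtr0076720, FBtr0079029, FBtr0087157 and FBtr0310428 every probe of the identifier on the array was a member, 2 for each, and the 2 means of an identifier differed by less than 0.4. These were -1.86 and -1.47, -1.38 and -1.22, -1.43 and -1.55, and -1.46 and -1.18.

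By type of identifier, 83 of 102 higher members (81.4%) and 65 of 85 lower members (76.5%) carried a FlyBase transcript number, against 67.3% of all probes. Assembled clusters made up 12 higher members (11.8%) and 9 lower members (10.6%), against 14.4%, and cDNA clones 7 (6.86%) and 3 (3.53%), against 3.75%. RefSeq accessions were found for 0 higher and 3 lower members (3.53%), against 1.34% of all probes. Of these 3, 2 are asRNA:CR43767 and asRNA:CR42871. Sequence accessions of other kinds named 0 higher members and 4 lower members (4.71%), against 8.54% of all probes.

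The balance of higher to lower members depended on the normalization. Of the 187 members of the deposited ratios, 54.5% were on the higher side, and this share was between 50.2% and 59.2% with the other background settings, with loess alone and with the ratios of the scanner software. Centring each array on its median, without the correction for intensity that loess makes, gave 164 higher and 28 lower members, 85.4% on the higher side. All 102 and 85 members nevertheless kept their sign on all 6 arrays under each of these settings, and under median centring 60 of the 85 lower members kept a mean of -1 or less.

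**Figure D5:**
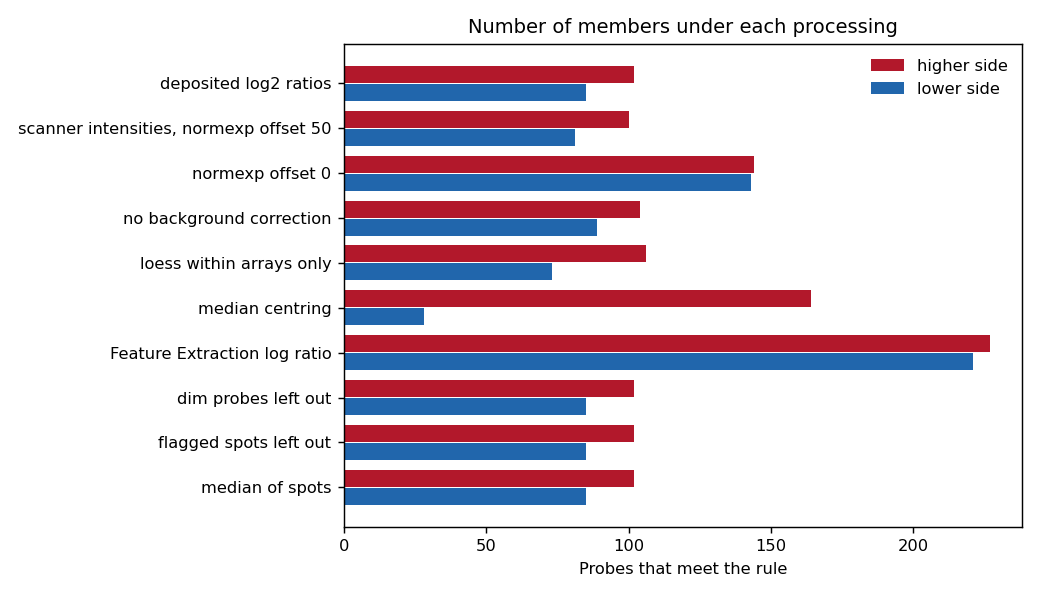
Number of probes that meet the rule on the higher side (red) and the lower side (blue) when the ratios are made in another way; bars start at 0. The deposited ratios give 102 and 85, median centring gives 164 and 28, and the ratios of the scanner software give 227 and 221.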

How the data were processed

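Ovary RNA (Cy5) and an OreR reference pool (Cy3) were compared on 6 Agilent arrays. The authors deposited log2 ratios, which were background corrected by normexp, then normalized with limma (loess for each array, quantiles across arrays), and rounded to 2 decimals. The normexp offset is not given in the sources used here. Agilent's scanner software (Feature Extraction 11.0.1.1) made the other deposited files, which give median spot and background intensities of both channels, detection and outlier flags, and a log10 ratio made by the software. Rows of the ratio table were matched to spots by their order. Control spots were left out and spots averaged by probe. Ratios were described without a test. Ectopic expression minus control was tested with limma 3.58.1 in R 4.3.3 on intensities corrected by normexp (offset 50), loess and quantile normalization, without flagged spots and with Benjamini-Hochberg adjustment over all 32162 probes. The calculation was tested on simulated data. Genes were named through the RefSeq gene table of the Release 6 assembly, as all members with 1 gene name and the 2 unnamed members farthest from the reference on each side. The members and lists were chosen with earlier results of these data known. The labels call the samples biological replicates, each a pool of ovaries. By the barcodes of the array files, each of the 3 slides held the control and the ectopic expression array of 1 replicate number. Alternatives were other background, normalization, spot and moderation settings, leaving out each array, and a replicate block.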

Additional observations from a re-analysis of the deposited data

How the results depend on the processing

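The counts of members stayed within 1.5 times under no background correction, loess alone, offset 50 on the intensities, dim probes or flagged spots left out and the median of spots. They left that range with the normexp offset at 0 (143 lower members, with 144 higher members still within it), with median centring (164 and 28) and with the ratios of the scanner software (227 and 221). Of the 102 and 85 members, 98 and 82 were among those at offset 0, 100 and 28 among those of median centring, and 96 and 76 among those of the scanner software. The cause was not tested. Leaving out 1 array gave 99 to 109 higher and 85 to 95 lower members. No member can fail the ratio threshold there, only the limit between genotypes, so these counts cannot show the part of an array. The limma calls among members (29 on the higher side, 15 on the lower) fell to 6 and 2 at offset 0, to 5 and 1 with median centring and to 8 and 4 with the scanner software, where 1442, 1020 and 2049 of all 32162 probes were called, against 3864. Without 1 array they numbered 10 to 37 and 3 to 21, while 1807 to 5308 of all probes were called. The fewest came without ectopic replicate 1 (10 and 3), followed by control replicate 2 (12 and 4) and control replicate 1 (17 and 5), and without ectopic replicate 2 the lower side had 6. With the replicate block, which is also the slide by the barcodes of the array files, 28 and 15 were called, and 3842 of all probes. Same-numbered arrays deviated together with correlations of 0.25, 0.002 and 0.101, so the numbers were not taken as pairs. Of 420 values of 28 probes under the alternatives, 356 stayed within 1 SD of the deposited mean, 64 moved by more and 0 changed sign. These probes are members, chosen far from 0 on the same scans, so the kept sign is no support. Dim channels limit the ratio of 24 higher and 11 lower members.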
